A study of Mus musculus with 8 samples.

Results

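The complement system is a cascade of plasma and tissue proteins that marks microbes and damaged cells. The genes described are 9 complement factors and regulators, chosen by name: C3, C4b, Cfb, Cfd, C1s, C1ra, Cd55, Cd59a and Serping1. All 9 had 1 row each among the 24918 rows of the table. In the classical pathway, the protease C1r of the C1 complex activates C1s, which cleaves C4 and C2 to build an enzyme that splits C3. In the alternative pathway, factor B and factor D build such an enzyme on C3 itself. The regulators restrain these steps: the C1 inhibitor blocks the C1 proteases, CD55 breaks up the enzymes that split C3, and CD59 stops the membrane attack complex from forming a pore. The cornea borders on tears and open air, and complement components and regulators are known in corneal tissue.

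RNA was sequenced from whole corneas of male wild-type C57BL/6J mice. All mice, controls included, had their adrenal glands removed at 8 weeks of age, which takes away their own glucocorticoids. About 4 weeks later the eyes were given drops of vehicle or of dexamethasone, a man-made steroid that activates the glucocorticoid receptor, and tissue was taken at 6 h. Each group had 4 libraries, each made from 4 to 6 pooled corneas, and how many mice gave a pool is not stated. If pools of a group share mice, p-values cover partly technical spread.

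After 6 h of dexamethasone drops, complement transcripts differed little from vehicle. Cd59a, which encodes the inhibitor of the membrane attack complex, rose 1.13-fold and was the single member called among the 8 that could be tested, where 15.1% of all tested rows were called and 9.04% were called higher. Its call was lost in 6 of 19 alternative fits. The C1 proteases, C4b, C3, Cfb, the C1 inhibitor gene Serping1 and Cd55 did not pass the test. Cfd was listed at 0 in all 8 libraries and could not be tested. Beyond the members, Clu (clusterin) and Masp1 (a protease of the lectin pathway) rose among 29 other tested complement genes (6.90% of them). None of the 29 fell in the reported fit, and C1rb was called lower in 3 of the 19 alternatives.

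Values are the authors' normalized log2 values, and differences are dexamethasone minus vehicle on this scale. A call required an adjusted p under 0.05 (limma, Benjamini-Hochberg over 14715 rows with a mean of at least 3). The values behave as shrunken logs, so fold changes are understated, mostly for rows with low values. Read totals of single libraries are unknown, and the labels give more than 40000000 reads per sample. In whole tissue, fewer cells of a type and less RNA per cell cannot be told apart. As a check of the treatment, all 8 of a list of glucocorticoid response genes rose, with Fkbp5 going from 13.62 ± 0.12 (SD, n = 4) to 14.50 ± 0.05 (SD, n = 4). The corneal keratin gene Krt12 (19.74 over all libraries) and the stromal collagen gene Col1a1 (17.30) marked the tissue as cornea. Dexamethasone replicate 1 and vehicle replicate 3 stood apart on principal component 2, which held 23.3% of the variance, and results are also given without both.

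Promoter sequences, 250 bases before to 50 after the transcription start, were taken from RefSeq on GRCm38.p6, where 6 of the 9 members matched an entry by Entrez identifier. C4b, Cfb and Serping1 had none. The promoters of Cd59a, the called member, and of C3, the protein on which all pathways converge, are printed 5′ to 3′. The Cd59a promoter is chr2:104095551-104095850 on the plus strand and the C3 promoter chr17:57228087-57228386 on the minus strand. Capitals mark matches to 5 motifs searched on both strands.
Cd59a: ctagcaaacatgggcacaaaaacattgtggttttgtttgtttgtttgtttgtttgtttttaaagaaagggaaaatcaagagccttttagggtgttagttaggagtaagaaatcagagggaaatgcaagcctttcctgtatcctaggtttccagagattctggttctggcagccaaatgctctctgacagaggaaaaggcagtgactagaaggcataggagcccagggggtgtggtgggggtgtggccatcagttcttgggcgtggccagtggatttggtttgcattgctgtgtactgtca
C3: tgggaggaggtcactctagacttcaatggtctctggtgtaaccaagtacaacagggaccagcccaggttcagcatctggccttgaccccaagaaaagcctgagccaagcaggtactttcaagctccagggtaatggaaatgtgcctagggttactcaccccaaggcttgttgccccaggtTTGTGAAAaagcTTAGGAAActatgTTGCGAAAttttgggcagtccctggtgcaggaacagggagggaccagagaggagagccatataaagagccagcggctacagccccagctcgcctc
The motifs were the glucocorticoid response element (AGAACA, any 3 bases, TGTTCT), its half-site AGAACA, which every full element contains, a kappaB site (GGG, any 2 bases, TTTCC), an AP-1 site TGANTCA and a C/EBP site TTNNGNAA. Of 32851 promoters of this length, 0.00913%, 19.0%, 1.63%, 7.81% and 40.7% held them. The Cd59a promoter held none. The C3 promoter held the C/EBP letters at 3 places, at positions -70, -58 and -45 from the start, the last of them on both strands. Among the other members, the half-site was found in the promoter of C1s (RefSeq symbol C1s1), at position -30 from the first of its 2 start sites, and C/EBP letters in those of C1s and C1ra. These are matches of letters only.

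The test called 15.1% of all tested rows, 9.04% higher and 6.03% lower. Against this, 1 of the 8 tested members was called higher and 0 lower (2 of 8 had an unadjusted p below 0.05, where 29.8% of all rows did), so the share of called members was near the background. The differences of the 8 members ran from -0.036 to 0.18. Their median was 0.072, beside -0.0029 for all tested rows; 7 were positive and 1 negative, where 48.5% of all rows were positive. For scale, the median size of a called difference was 0.17. The groups overlapped in 7 members and not in 1, and they did not overlap in 20.7% of all rows, with dexamethasone higher in 11.6%.

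**Figure D1:**
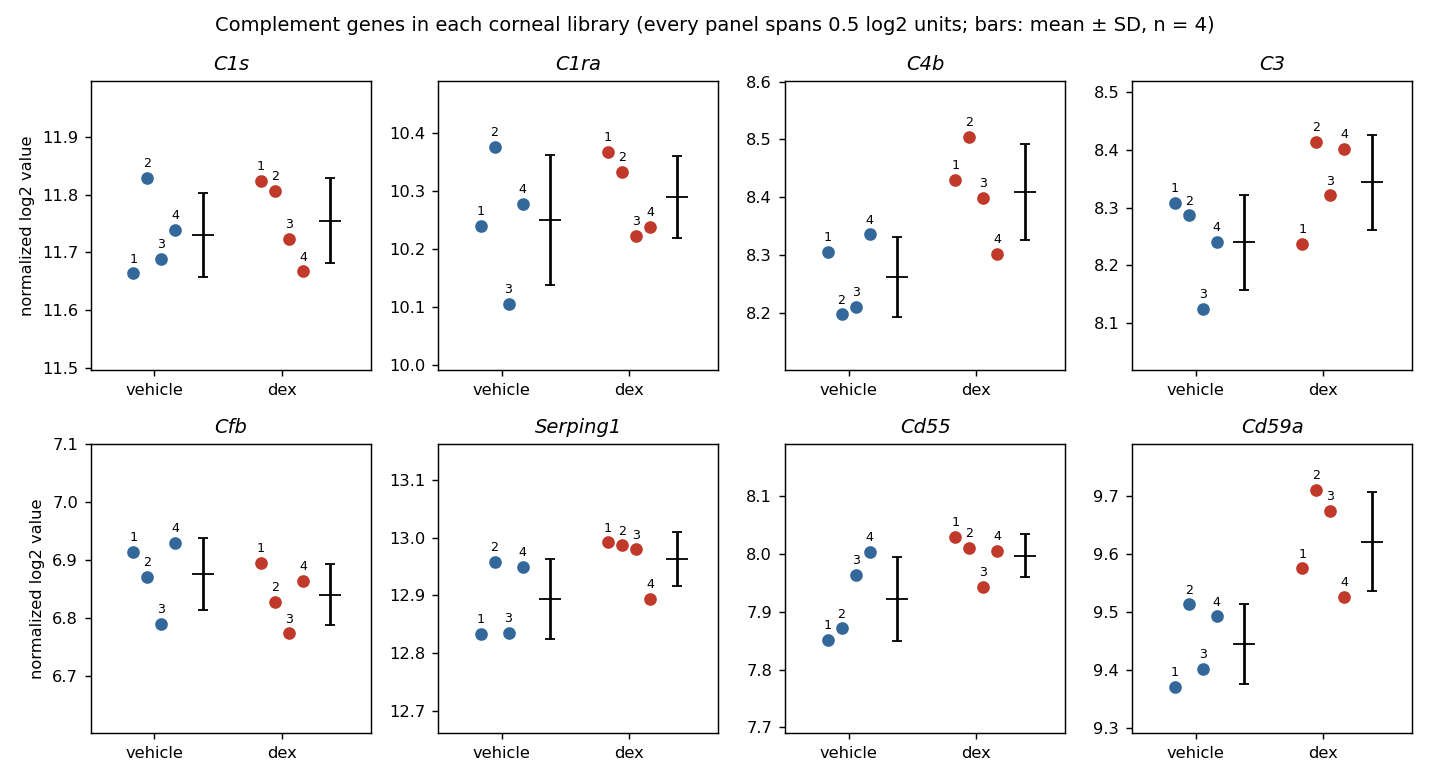
Normalized log2 value of the 8 tested members in each library (points, numbered by replicate; bars give the mean and SD of 4 libraries; every panel spans 0.5 log2 units). All dexamethasone libraries lie above all vehicle libraries for Cd59a alone; in the other 7 panels the groups overlap.

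The protease genes of the C1 complex lie side by side on mm9 chromosome 6. C1s (Entrez 50908; 124480363 to 124586998), the protease that cleaves C4 and C2, was 11.82, 11.81, 11.72 and 11.67 in dexamethasone replicates 1 to 4 and 11.66, 11.83, 11.69 and 11.74 in vehicle replicates 1 to 4. The highest and the lowest of the 8 values were both vehicle libraries. The difference was 0.025 (SE 0.04, 95% interval -0.072 to 0.12, adjusted p = 0.752, limma).

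C1ra (Entrez 50909; 124462423 to 124473458), which encodes the protease that activates C1s, was 10.37, 10.33, 10.22 and 10.24 after dexamethasone and 10.24, 10.38, 10.10 and 10.28 after vehicle. Here too a vehicle library was highest and another lowest. The difference was 0.040 (SE 0.05, 95% interval -0.078 to 0.16, adjusted p = 0.667, limma). Without the 2 libraries that stand apart the differences of C1s and C1ra were -0.012 and -0.034. C1rb, a close copy of C1ra, shares 39.4% of the 75-base stretches of the C1ra transcript, so reads of the 2 genes are partly uncertain. It was far lower, at 5.02 ± 0.12 (SD, n = 4) against 5.16 ± 0.04 (SD, n = 4), and was not called (adjusted p = 0.0798, limma). It was called lower without dexamethasone replicate 1 (difference -0.19, adjusted p = 0.0219, limma) and without both libraries that stand apart (-0.20, adjusted p = 0.0141, limma). Another copy, listed as Gm5077 (C1s2 in RefSeq), shares 14.7% of the stretches of C1s and was 4.46 ± 0.09 (SD, n = 4) against 4.40 ± 0.08 (SD, n = 4).

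C4b (Entrez 12268; mm9 chromosome 17, 34865325 to 34880827) encodes the C4 protein that C1s cleaves. It was 8.43, 8.50, 8.40 and 8.30 after dexamethasone and 8.30, 8.20, 8.21 and 8.34 after vehicle. Dexamethasone replicates 1 to 3 lay above every vehicle library, and replicate 4 lay below vehicle replicates 1 and 4. The difference was 0.15 (SE 0.05, 95% interval 0.040 to 0.25, adjusted p = 0.0656, limma). After quantile normalization it did pass (adjusted p = 0.0445, limma), as it did without dexamethasone replicate 4 (adjusted p = 0.0330, limma), with a difference of 0.18. Without both libraries that stand apart it was 0.12 (adjusted p = 0.179, limma). C4a, which shares 23.5% of the 75-base stretches of C4b, was 5.41 ± 0.06 (SD, n = 4) against 5.41 ± 0.04 (SD, n = 4).

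C3 (Entrez 12266; mm9 chromosome 17, 57343397 to 57367559), the source of the fragment that coats targets, was 8.24, 8.41, 8.32 and 8.40 after dexamethasone and 8.31, 8.29, 8.12 and 8.24 after vehicle. Dexamethasone replicates 2 to 4 lay above all vehicle libraries and replicate 1 below vehicle replicates 1, 2 and 4. The difference was 0.10 (SE 0.05, 95% interval -0.0088 to 0.22, adjusted p = 0.204, limma), and 0.10 without both libraries that stand apart. The interval covers folds from 0.994 to 1.16. The rows whose profile over the 8 libraries was most like that of C3 were Ccdc181, Wdr19 and Vwa5a. After each row's mean was subtracted, they differed from C3 by 0.022, 0.023 and 0.023 per library on average, where the median row differed by 0.084.

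The liver is the main source of plasma complement, and 4 hepatocyte markers were read beside it. Albumin (Alb) and fibrinogen (Fgb) stood at -3.87 over the libraries, the lowest level of the table, Apoa1 at -0.87 and Ttr at 2.39. None reached the mean of 3 needed for the test, and their part in the complement values was not tested.

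Of the alternative pathway genes, Cfb (Entrez 14962; mm9 chromosome 17, 34993319 to 34999463) encodes factor B, the protease part of the enzyme built on C3. It was 6.90, 6.83, 6.77 and 6.86 after dexamethasone and 6.91, 6.87, 6.79 and 6.93 after vehicle. The ranges lay almost on top of each other, and this was the member with a negative difference, -0.036 (SE 0.04, 95% interval -0.13 to 0.055, adjusted p = 0.608, limma). The locus Gm20547 shares 2246 of the 2751 exonic bases of Cfb in GENCODE vM1, so reads may be split or dropped there; the authors' annotation is not given in the sources used here.

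Cfd (Entrez 11537; mm9 chromosome 10, 79353598 to 79355401) encodes factor D, also called adipsin, the protease that activates factor B and is made abundantly by fat cells. It was listed at 0 in each of the 8 libraries, as were 5078 rows in all. The value 0 is no level on this scale, since rows not listed at 0 go down to -3.87. Rpl26, a ribosomal protein gene that every cell uses, was also listed at 0. For Cfd, no exon of another gene overlapped its exons in GENCODE vM1. Fat cell markers were low: Adipoq was -2.39, Plin1 -1.95 and Cidec -3.87 over the libraries, and 6 of 7 markers fell short of a mean of 3. The one tested marker, Car3, stood at 14.28.

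Serping1 (Entrez 12258; mm9 chromosome 2, 84605544 to 84615601), the C1 inhibitor gene, was 12.99, 12.99, 12.98 and 12.89 after dexamethasone and 12.83, 12.96, 12.83 and 12.95 after vehicle. Dexamethasone replicates 1 to 3 lay just above the vehicle libraries and replicate 4 among them. The difference was 0.069 (SE 0.04, 95% interval -0.015 to 0.15, adjusted p = 0.253, limma).

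Cd55 (Entrez 13136; mm9 chromosome 1, 132335604 to 132359321), whose product sits on the cell surface and disperses the enzymes that split C3, was 8.03, 8.01, 7.94 and 8.00 after dexamethasone and 7.85, 7.87, 7.96 and 8.00 after vehicle. Vehicle replicates 1 and 2 were lower than all other libraries, and replicates 3 and 4 lay within the dexamethasone range. The difference was 0.075 (SE 0.04, 95% interval -0.017 to 0.17, adjusted p = 0.261, limma). Its copy Daf2 stood at -2.00 over all libraries and was not tested.

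Cd59a (Entrez 12509; mm9 chromosome 2, 103935958 to 103955511) was 9.58, 9.71, 9.67 and 9.53 after dexamethasone and 9.37, 9.51, 9.40 and 9.49 after vehicle. Every dexamethasone library exceeded every vehicle library, but dexamethasone replicate 4 and vehicle replicate 2 were almost level. The difference was 0.18 (SE 0.05, 95% interval 0.072 to 0.28), from 9.44 ± 0.07 (SD, n = 4) to 9.62 ± 0.09 (SD, n = 4), with adjusted p = 0.0286 (limma). The call was lost without dexamethasone replicate 2 (adjusted p = 0.0759, limma), dexamethasone replicate 3 (0.0717), vehicle replicate 1 (0.0772) or vehicle replicate 3 (0.0534), while the difference stayed between 0.15 and 0.21 when any 1 library was left out. Without both libraries that stand apart it was 0.18 (adjusted p = 0.0459, limma).

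Dexamethasone replicates 2 and 3, the highest libraries for Cd59a, also had the lowest median level of 694 rows near the floor of the scale. These medians were almost constant, from -3.86844 in dexamethasone replicate 2 to -3.86821 in vehicle replicate 2. Dexamethasone replicates 2, 3 and 4 (-3.86836 in the last) lay below every vehicle library, so the level is partly tied to the treatment. With a term for that level the Cd59a difference was 0.14 (adjusted p = 0.175, limma), and with no filter on low rows its adjusted p was 0.0584 (limma). Cd59b, the copy of Cd59a, shares 1.73% of its 75-base stretches and stood at 2.76 over the libraries, below the mean of 3 needed for the test.

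**Figure D2:**
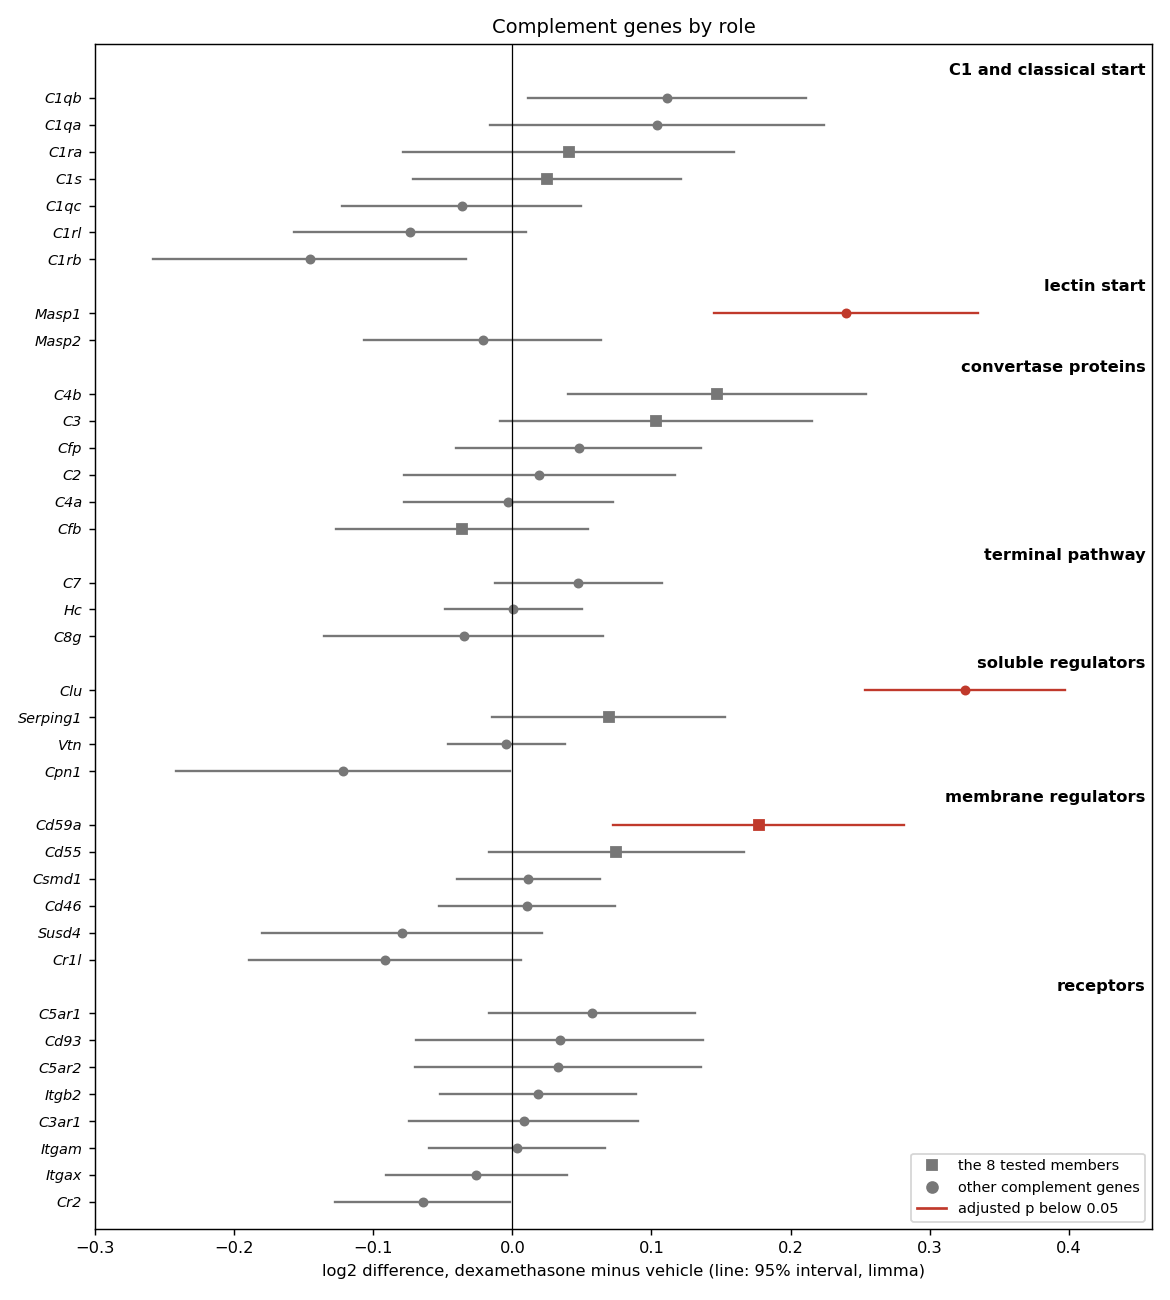
Log2 difference, dexamethasone minus vehicle, of tested complement genes grouped by role (squares: the 8 members; circles: other genes; lines: 95% intervals from limma; red: adjusted p below 0.05). Clu, Masp1 and Cd59a are the genes in red, all to the right of 0, and most other intervals include 0.

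Levels of different genes were compared per kilobase of the longest GENCODE vM1 transcript, after the log2 of its length was subtracted. In vehicle corneas the order of these log2 levels was Serping1 (12.07), C1s (10.17), C1ra (8.79), Cd59a (8.59), Cd55 (6.27), C3 (5.88), C4b (5.83) and Cfb (5.42). C3 and C4b were closer to each other than their SDs between libraries (0.08 and 0.07). After dexamethasone the order was the same from Serping1 down to Cd55, and C3 and C4b were both at 5.98. C1ra (8.83) and Cd59a (8.77) were then also within their SDs (0.07 and 0.09). The C1 protease genes and their inhibitor thus gave higher values per length than C3, C4b and Cfb in both groups. Full lengths were used, with no correction for stretches shared with other genes. These were 2246 of 2751 exonic bases for Cfb and 39.4% of the 75-base stretches for C1ra. If reads were lost there, these levels are too low, so the last place of Cfb is uncertain.

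Some libraries were the highest or the lowest of their group for several members. Dexamethasone replicate 1, which stands apart, was the highest of its group for 5 members, Cfb, C1s, C1ra, Cd55 and Serping1. Vehicle replicate 2 was the highest vehicle library for 4 members, C1s, C1ra, Serping1 and Cd59a, and vehicle replicate 1 the lowest for 4, C1s, Serping1, Cd55 and Cd59a. Dexamethasone replicate 4 was the lowest of its group for C4b, C1s, Cd59a and Serping1. The median deviation of the 8 members from their group mean ran from -0.061 in dexamethasone replicate 4 to 0.055 in vehicle replicate 2. That of all tested rows stayed between -0.0040 and 0.0019, but a median of 8 genes scatters more than a median of all rows. Whether the members varied together more than other sets of 8 rows was not tested.

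Other genes of the system came from lists drawn up by role. Of 50 further genes with a row, 29 were tested, 16 had a mean below 3 and 5 were listed at 0. Of the 29, 2 rose and none fell (6.90% higher, beside 9.04% of all rows), with a median difference of 0.0083; 27 were not called.

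In the lectin pathway, which sugars on microbes start, Masp1 (Entrez 17174; mm9 chromosome 16, 23449490 to 23520676) encodes a starter protease. It was 8.92, 8.81, 8.89 and 8.90 after dexamethasone and 8.68, 8.53, 8.71 and 8.64 after vehicle. All dexamethasone libraries lay above all vehicle libraries, and the difference was 0.24 (SE 0.04, adjusted p = 0.00350, limma), or 1.18-fold. Masp2, the partner protease that cleaves C4 and C2, was 8.83 ± 0.07 (SD, n = 4) against 8.85 ± 0.02 (SD, n = 4). The lectins that bring these proteases to a surface were low: Mbl1 and Fcnb were listed at 0, and Mbl2, Fcna, Colec10 and Colec11 had means from -3.87 to 2.76.

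Among soluble regulators, Clu (Entrez 12759; mm9 chromosome 14, 66587320 to 66600385), a chaperone that also binds the late complement complex, was 13.87, 13.98, 13.98 and 13.96 after dexamethasone and 13.61, 13.66, 13.59 and 13.65 after vehicle. The groups were far apart, with a rise of 1.25-fold. Vtn, named after its values were seen, encodes vitronectin, which also binds the late complex. It was 3.53 ± 0.03 (SD, n = 4) against 3.53 ± 0.02 (SD, n = 4). Cpn1, whose product trims the small fragments C3a and C5a, had a difference of -0.12 (adjusted p = 0.162, limma).

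On the membrane side, Cr1l, which encodes the rodent regulator Crry, was 9.43 ± 0.09 (SD, n = 4) against 9.52 ± 0.03 (SD, n = 4), and Susd4 was 10.05 ± 0.09 (SD, n = 4) against 10.13 ± 0.05 (SD, n = 4). Neither was called (adjusted p of 0.198 and 0.276, limma). Of the classical starters, 0 of 5 further genes were called. The C1q chains, made mainly by macrophages, differed by 0.11 for C1qb (adjusted p = 0.129, limma) and, named after their values were seen, by 0.10 for C1qa and -0.036 for C1qc. C1rl, a relative of C1r, was 7.85 ± 0.02 (SD, n = 4) against 7.92 ± 0.06 (SD, n = 4) and, though the groups did not overlap, was not called (adjusted p = 0.225, limma).

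C2 (difference 0.019) and Cfp (0.048), the gene of properdin, which stabilizes the alternative pathway enzyme, were not called, and 0 of 3 further convertase genes passed. In the terminal pathway, C8b and C9 were listed at 0, C6 stood at -1.27 and C8a at 2.72. The 3 tested terminal genes, among them C7 (difference 0.047) and C8g (-0.035), were not called. Of 8 tested receptor genes none passed either. C5ar2, a receptor for C5a, had a difference of 0.033 and Itgam, a chain of complement receptor 3, of 0.0034. None of the pentraxin genes Ptx3, Crp and Apcs was tested.

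**Figure D3:**
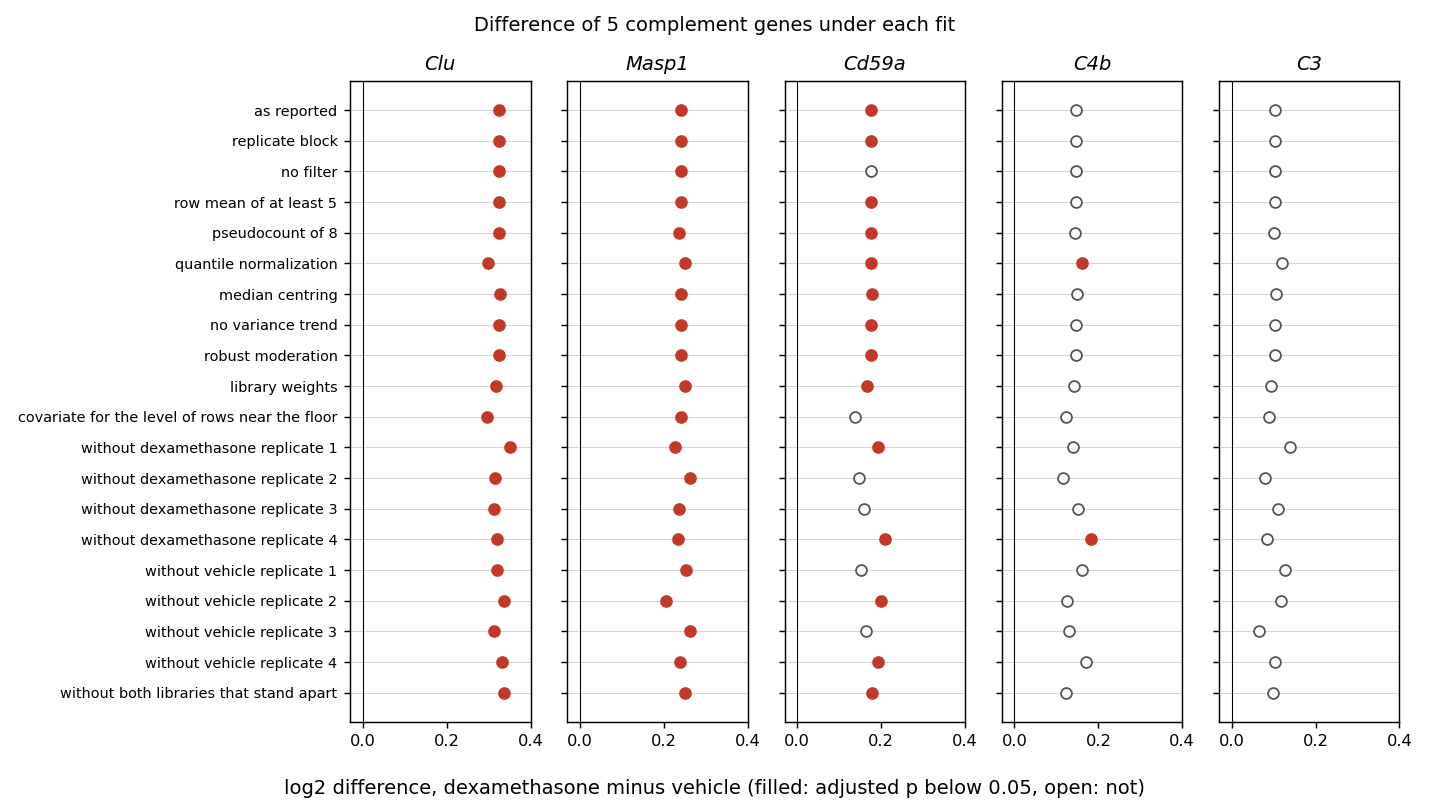
Log2 difference, dexamethasone minus vehicle, of Clu, Masp1, Cd59a, C4b and C3 (panels) in the reported fit and in 19 alternative fits (lines). Filled points have an adjusted p below 0.05: Clu and Masp1 are filled throughout, Cd59a is open in 6 alternatives, C4b is filled in 2 and C3 is open throughout.

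Markers of cell types were read as summed levels, the log2 of the sum of a list's unlogged values. Macrophage and dendritic cell markers ran from 11.42 to 11.51 after dexamethasone and from 11.44 to 11.53 after vehicle, with 1 of 10 higher (Mrc1) and 1 lower (Lyz2). Blood vessel markers ran from 10.78 to 10.89 against 10.66 to 10.76, with 1 of 6 higher, and corneal endothelium markers from 16.02 to 16.08 against 15.92 to 15.98, with 1 of 5 higher and 1 lower (Slc4a11). In both lists the sums of the groups did not overlap, as for Cd59a, Clu and Masp1. Epithelial markers ran from 20.64 to 20.79 against 20.76 to 20.81 (0 higher and 1 lower of 6), stromal ones from 18.70 to 18.79 against 18.68 to 18.75 (0 and 2 of 7) and conjunctival ones from 15.54 to 15.79 against 15.44 to 15.60 (1 and 0 of 5). Of the 5 neutrophil markers with a row, 2 were tested and none was called, and Mpo was listed at 0. The part of any cell type in the complement results was not tested.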

How the data were processed

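RNA of whole corneas was sequenced as paired reads of 75 bases. The submitters' processing notes name the build mm9 and the tools HTSeq, Bowtie2 and DESeq2. Their versions, the annotation, the strand setting and the transformation were not stated there. Expression was deposited as normalized log2 values made by the authors, with 1 column for each of the 8 libraries. Without a stated strand setting, overlapping genes cannot be told apart. In GENCODE vM1, 576 of 2946 exonic bases of C1s lie in Gm16567 and 102 of 3133 of Cd55 in Gm16083.

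Libraries were grouped by the titles. All rows with a mean of at least 3 were fitted with limma 3.58.1 in R 4.3.3 (group term, moderated variance with trend, two-sided), and p-values were adjusted over all 14715 rows by the Benjamini-Hochberg method. The fit was also run on simulated normal noise with added differences, independent for each gene and library. Such noise holds no spread shared by genes of a library, so that run cannot show how such spread affects the calls. Annotation, transcripts and 75-base stretches were taken from GENCODE vM1 (assembly NCBIM37, equal to mm9) and handled in Python 3.11.15, NumPy 2.4.6 and pandas 2.3.3. Summed levels and levels per kilobase were computed from the log2 values. The log2 values hold no read numbers, so depth and its precision are unknown and count tests were not run. The members and lists were chosen with earlier results of these data known. Named genes are the 9 members, called genes of the complement lists, up to 2 uncalled genes of highest mean per list, and the 3 rows most like C3; the same rule gives none for Cfd. Some genes of the lists count in the totals but are not reported here by name or drawn. Alternatives were a replicate block, quantile normalization, median centring, no filter, a filter at a mean of 5, a pseudocount of 8, no trend, robust moderation, library weights, a term for rows near the floor, and leaving out libraries.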

Additional observations from a re-analysis of the deposited data

Results flagged for a closer look

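In 46 sets of 4 libraries (23 named genes in 2 groups), a single library stood far from the others in 5, where chance gives about 1 in 20, or 2.3. Serping1 was lowest in dexamethasone replicate 4, at 12.89 against 12.98 to 12.99 in the others, a gap of 0.877 of the range. C1qb was lowest in vehicle replicate 1, at 7.15 against 7.24 to 7.25 (0.944). C1rl was highest in vehicle replicate 2, at 8.02 against 7.88 to 7.90 (0.849). Vehicle replicate 3 was lowest for C7, at 3.61 against 3.67 to 3.68 (0.861), and for C8g, at 6.71 against 6.88 to 6.90 (0.849).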

How the results depend on the processing

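Of 14715 rows 2218 were called, against 1184 with a term for rows near the floor and 1411 to 2131 when 1 library was left out. The number of members called higher was 1. It was 0 with no filter or with the term for rows near the floor, 2 with quantile normalization, and 0 to 2 when 1 library was left out. No member was called lower in any of the 19 alternatives. The other complement genes called numbered 2, and 2 to 3 when 1 library was left out; there were 3 with the replicate block, with library weights and without both libraries that stand apart. C1rb was called lower with library weights (-0.16), without dexamethasone replicate 1 (-0.19) and without both libraries that stand apart (-0.20). Clu and Masp1 kept their calls in all 19. Cd59a lost its call with no filter (difference 0.18) and with the term for rows near the floor (0.14), and ran from 0.15 to 0.21 when 1 library was left out. C4b passed with quantile normalization (0.16), and ran from 0.12 to 0.18 when 1 library was left out. Directions turned only in uncalled genes: Cfb with the floor term (0.00031), C1s with quantile normalization (-0.0024), C1s, C1ra and C2 without both libraries that stand apart (-0.012, -0.034 and -0.015), C2 with library weights (-0.0026) and Itgam with quantile normalization (-0.043). When 1 library was left out, C1ra ran from -0.0078 to 0.082, Masp2 from -0.049 to 0.0085, C2 from -0.014 to 0.045 and Itgam from -0.0093 to 0.021. The causes were not tested.

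The deviations of same-numbered libraries from their group means had correlations of -0.31, 0.19, -0.14 and 0.14. With 4 libraries per group, such values cannot tell whether same-numbered libraries were handled together. None of the 4 dexamethasone libraries correlated best with its own number. With a replicate block 1675 rows were called, and Cd59a kept its call (adjusted p = 0.0356, limma). No symbol among the members had a second locus, so that alternative gave no value. Count tests were not run.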

Other observations

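Itgam, a chain of complement receptor 3 and a marker of myeloid cells, had 12.90 to 12.99 in the 8 libraries, while Itgb2, the chain it pairs with, had 5.59 to 5.71. Per kilobase of the longest transcript their mean log2 levels were 10.68 and 4.06. No exon of another gene overlapped the exons of Itgam in GENCODE vM1. The myeloid markers Csf1r and Ptprc were at 8.86 and 6.26 without regard to length. These genes were singled out after their values were seen.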
